A study of Mus musculus with 464 samples.

Results

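The oxidative phosphorylation genes described here are the genes of the deposited expression table whose symbols begin with mt-, Nduf, Uqcr, Cox4 to Cox8 or Atp5, and they made up 13 mitochondrial and 88 nuclear genes among 21973 in all. The mitochondrial members are 7 subunits of complex I, 1 of complex III, 3 of complex IV and 2 of complex V. Of the nuclear members, 79 are structural subunits, with 36 in complex I, 8 in complex III, 20 in complex IV and 15 in complex V. The remaining nuclear members are the 8 complex I assembly factors Ndufaf1 to Ndufaf8, which help to build the complex and are not part of it, and Atp5s, which is not a structural subunit of ATP synthase in spite of its symbol. Ndufa4 and its paralog Ndufa4l2 were counted with complex IV. Choosing by symbol leaves out subunits with other names, such as Cyc1 of complex III, which is given below with related genes.

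Oxidative phosphorylation takes place in the inner mitochondrial membrane. Complex I passes electrons from NADH to ubiquinone, complex III passes them on to cytochrome c and complex IV to oxygen, and complex V, the ATP synthase, makes ATP from the proton gradient that the other complexes build. Mitochondrial DNA is transcribed into long RNAs that are cut into single mRNAs, whereas each nuclear subunit has a promoter of its own and its protein is imported from the cytosol. Stem cells are known to draw much of their energy from glycolysis, and neurons depend strongly on respiration.

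All samples were single cells of 1 group. Cells of the mouse embryonic stem cell line R1, kept with Knockout Serum Replacement and the cytokine LIF, were formed into embryoid bodies in hanging drops and then held in medium with retinoic acid for 4 days, at a labelled dose of 0.5 mM. Capture of the cells took place on the C1 system of Fluidigm, with SMART-Seq V4 chemistry for the cDNA, which copies whole transcripts and adds no molecular identifiers, and with Nextera XT for the libraries. The labels name no separate cultures and every cell had the same treatment, so the cells were treated as 1 sample, no p-value or standard error was drawn from them, and a difference between states was called only by its size.

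Expression is given as TPM, a share of a cell's transcripts that is corrected for transcript length and scaled to a fixed total, so that levels of different genes can be set side by side. TPM holds no sequencing depth, so the depth behind each value is unknown, and the number of genes above 0 in a cell, 2059 to 10256 in the kept cells, is the only stand-in. A cell was kept if 2000 or more genes were above 0 and no more than 20% of its listed expression came from mt- genes, which removed 6 cells. The highest mt- share kept was 18.4% and the lowest removed was 20.2%. The lowest gene number kept was 2059 and the highest removed was 1657. Columns fell into 2 sets by a tag in their names, whose meaning is not stated, and folds within each set are given beside the pooled fold. In addition, the sets held 55 pairs of columns that were nearly the same (correlation of log2(TPM + 1) between 0.946 and 0.990, against at most 0.917 for any other pair of columns). They were taken as repeat measurements of the same cells, and each such cell was counted once where distinct cells are named.

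Cells were placed in lineage states by how many of 10 markers per list they showed at 1 TPM or more. Endoderm-marker cells, with at least 5 endoderm markers (among them Gata4, Gata6 and Sox17) and few neural ones, numbered 63. Progenitor-marker cells, with at least 5 neural progenitor markers such as Pax6, Sox1 and Sox2, numbered 110 in set 1 and 92 in set 2. Neuron-marker cells, with at least 8 neuron markers such as Tubb3, Dcx and Elavl3, numbered 120. Mixed cells, with endoderm and neural markers together, numbered 58, and 15 cells had no state and entered no comparison. A state is a range cut from a marker count, not a cell type. At the neuron cut lay 32 cells and 34 lay 1 marker below it, while at the endoderm cut lay 4 cells with 10 just below. Of the 55 repeat pairs, 51 had both columns in the same state. The median endoderm-marker cell showed 8 of 10 endoderm markers, and the median progenitor-marker cell 9 of 10 progenitor markers. The median neuron-marker cell showed 10 of 10 neuron markers. High counts of the markers that set the states follow from the cuts and do not check the labels. The median neuron-marker cell still showed 8 progenitor markers. Markers of mesenchyme, neural crest, endothelium and blood, and heart had a median summed level of 0 TPM in every state. The summed level of the 5 heart markers still had a mean of 35.4 TPM in endoderm-marker cells (0 to 1112.85), against 5.28 TPM in progenitor-marker cells (0 to 127.75). The 1 heart marker with a mean of at least 5 TPM was 8.44-fold higher in the endoderm-marker cells, or 9.33-fold on the second scale given below. It passed the 5 TPM filter only through the endoderm-marker cells, so its fold is a description only. None of the 5 was at 0 in all endoderm-marker cells. The upper quartile of their summed level there was 1.29 TPM, so a minority of cells carries the mean. Pluripotency markers had a median summed level of 33.8 TPM in endoderm-marker cells and 0 TPM in progenitor-marker and neuron-marker cells, with Nanog, Esrrb and Tdgf1 at 0 in every endoderm-marker cell. The median number of genes above 0 was 5959 in endoderm-marker, 6713.5 in progenitor-marker, 7015.5 in neuron-marker and 7982.5 in mixed cells. Doublets were not called, because the table holds no counts, and whether mixed cells are doublets was not tested.

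Summed RNA of the 13 mitochondrial genes and summed RNA of the 79 nuclear subunits were of similar size in these cells, and both differed far more from cell to cell than from state to state. Over all kept cells the mitochondrial sum had a median of 60649 TPM and the nuclear sum a median of 56589 TPM. In endoderm-marker cells the mitochondrial sum ran from 4968 to 111272 TPM with a median of 54547. In progenitor-marker cells it ran from 7094 to 149609 TPM with a median of 58819.6, and in neuron-marker cells from 7135 to 153412 TPM with a median of 64409. The 3 ranges overlapped almost entirely. The fold of means was 0.932 for endoderm-marker against progenitor-marker cells (0.908 in set 1 and 0.958 in set 2) and 1.16 for neuron-marker against progenitor-marker cells (1.10 and 1.21).

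The nuclear sum ran from 37191 to 65887 TPM in endoderm-marker cells, with a median of 53442. It ran from 37221 to 74762.5 TPM in progenitor-marker cells, with a median of 57545, and from 14431 to 100110 TPM in neuron-marker cells, with a median of 57266. These ranges overlapped too, and the folds of means against progenitor-marker cells were 0.9302 in endoderm-marker cells (0.940 and 0.924 in the sets) and 0.999 in neuron-marker cells (0.988 and 1.01).

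**Figure D1:**
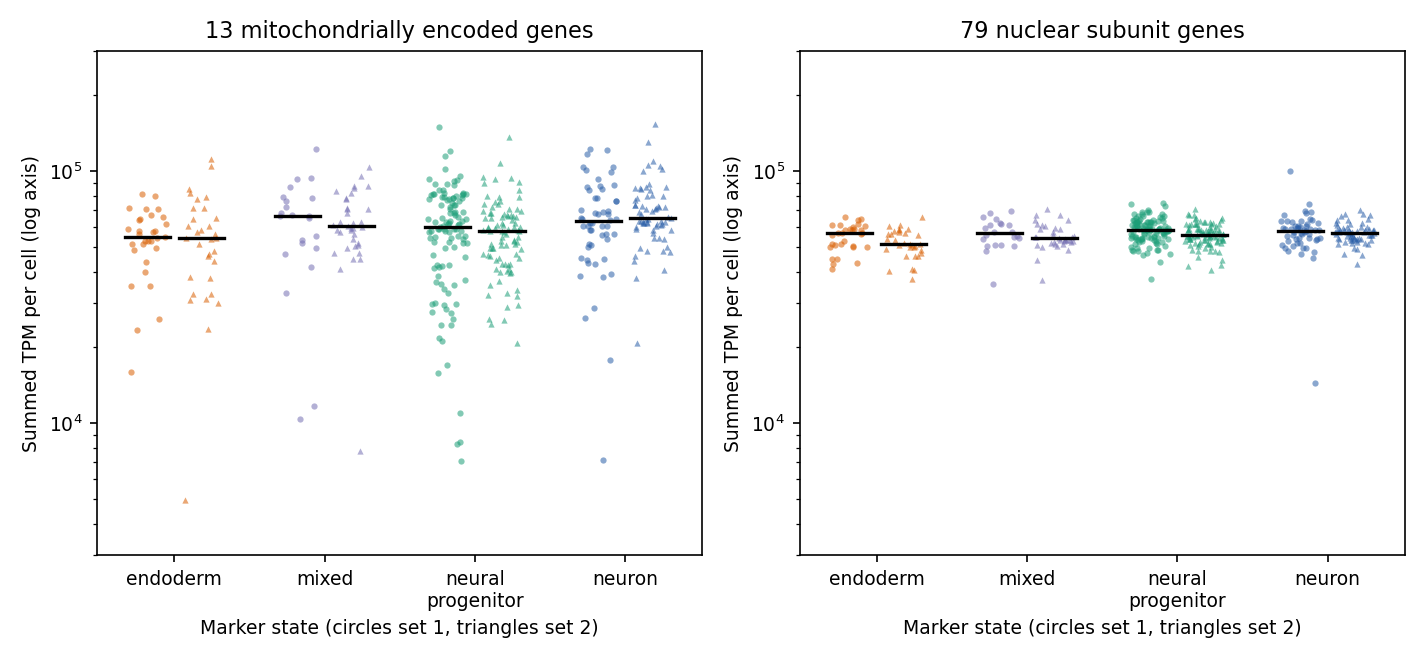
Summed TPM per cell (log axis) of the 13 mitochondrially encoded genes (left) and the 79 nuclear subunit genes (right), by marker state. Each point is a cell, circles for column set 1 and triangles for set 2, and black lines are medians of each set. The 15 cells with no state are not drawn. The mitochondrial sum spans a much wider range in every state than the nuclear sum, and the states overlap in both.

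Whether a sum reads as lower or higher in the endoderm-marker cells depended on the scale. On deposited TPM the median tested gene had a fold of 0.820 (log2 -0.29) in endoderm-marker against progenitor-marker cells. When each cell was rescaled by 1175 genes that are no members and are detected in at least 95% of kept cells, an alternative added after the data were seen, the median gene stood at 1.03 and the mitochondrial and nuclear folds became 1.17 and 1.16. The direction of both endoderm sums therefore flips with the scaling, whereas the neuron fold of the mitochondrial sum was 1.24 on that scale, the same direction.

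The ratio of the nuclear to the mitochondrial sum within a cell does not depend on the scaling. Its median was 0.981 in endoderm-marker cells, with a range from 0.388 to 9.81. It was 0.999 in progenitor-marker cells (0.311 to 9.89), 0.922 in mixed cells (0.417 to 5.76) and 0.860 in neuron-marker cells (0.305 to 5.60). The states overlapped almost entirely, with a fold of medians of 0.982 for endoderm-marker (0.990 and 0.9496 in the sets) and 0.861 for neuron-marker cells (0.919 and 0.807) against progenitor-marker cells.

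The repeat columns give the spread between columns taken as the same cell, to set beside the spread over cells. Between the columns of a pair the mitochondrial sum differed by a median of 6.48% and at most 1.248-fold, and the nuclear sum by a median of 1.27% and at most 1.04-fold. On the log2 scale the SD from repeat measurement was 0.083 for the mitochondrial sum, against 0.68 over the distinct cells. For the nuclear sum it was 0.018, against 0.28. From the 10th to the 90th percentile of distinct cells the mitochondrial sum spanned 2.57-fold and the nuclear sum 1.34-fold. What the paired columns share beyond the cell is not stated, so this repeat SD covers only the steps that differed between them. The pairs were also picked by a correlation above 0.93 over genes that include the members. Close agreement is thus partly selected. Repeats that differed more would have been left out, so the repeat SD may be too low.

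**Figure D2:**
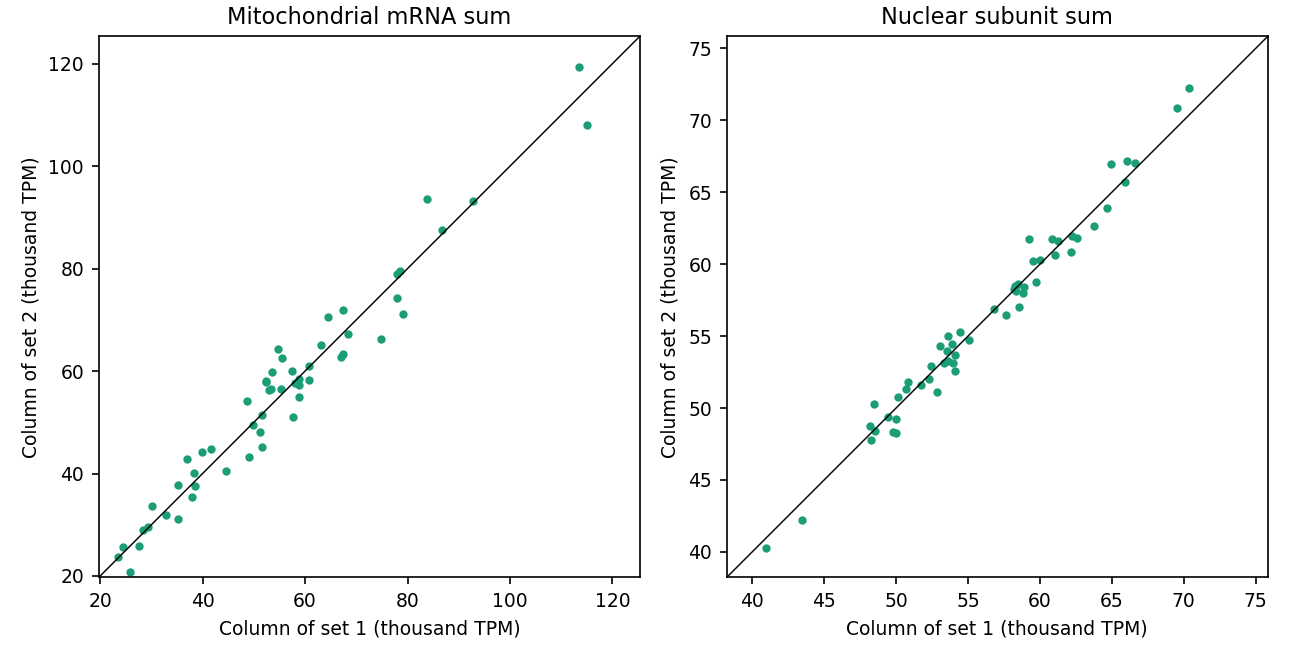
Mitochondrial mRNA sum (left) and nuclear subunit sum (right) in the 55 pairs of near-copy columns, in TPM as marked on the axes, the column of set 1 on the x axis and its copy in set 2 on the y axis. The line marks equal values. The pairs lie close to the line in both panels, within 1.248-fold for the mitochondrial and 1.04-fold for the nuclear sum. They were picked for a high correlation, so this closeness is partly selected.

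Among the mitochondrial genes, mt-Atp6, the proton channel subunit of complex V, had the highest level. It had a median of 13615 TPM (155.1 to 29140) in endoderm-marker cells. In progenitor-marker cells the median was 15683 TPM (1378 to 38831) and in neuron-marker cells 18819 TPM (3207 to 41592). All 3 ranges overlapped, and the folds of means against progenitor-marker cells were 0.851 in endoderm-marker and 1.21 in neuron-marker cells. Its neighbour mt-Atp8, whose reading frame overlaps mt-Atp6, showed folds of 0.823 and 1.17.

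The catalytic complex IV subunit mt-Co1 had the largest endoderm fold of the mitochondrial genes. Its level ran from 656 to 17746 TPM in endoderm-marker cells with a median of 4801, and from 230 to 9073 TPM in progenitor-marker cells with a median of 3702. The ranges overlapped, and the fold of means was 1.34 (1.19 and 1.49 in the sets), or 1.71 on the scale of the broadly detected genes. In neuron-marker cells, with a median of 4793 TPM and a range from 343.96 to 14399, the fold was 1.27 (1.254 and 1.29). The other core subunits of complex IV, mt-Co2 and mt-Co3, had endoderm folds of 0.866 and 1.13 and neuron folds of 1.06 and 1.27.

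None of the 13 mitochondrial genes reached a 1.5-fold difference in mean TPM in either comparison, on the deposited scale. Over the 8312 genes with a mean of at least 5 TPM, 22.3% were at least 1.5-fold higher and 37.8% at least 1.5-fold lower in endoderm-marker than in progenitor-marker cells. For neuron-marker against progenitor-marker cells the shares were 14.1% and 13.1%. After rescaling by broadly detected genes, 2539 of the 8312 were higher and 2296 lower in endoderm-marker cells, and 1511 and 900 in neuron-marker cells. In endoderm-marker cells 6 of the 13 genes had a fold above 1, with a median of 0.971 over the 13. On the scale of the broadly detected genes all 13 were above 1 and 3 were past 1.5-fold: mt-Co1, mt-Nd5 (1.51) and mt-Nd4l (1.51), which differed between the sets (1.502 and 0.944 on deposited TPM). In neuron-marker cells 12 of the 13 were above 1, on both scales, with a median of 1.17 on deposited TPM. The exception, mt-Nd3, a membrane subunit of complex I, had a fold of 0.908. After rescaling 1 gene, mt-Nd4l, passed 1.5-fold in neuron-marker cells (1.51).

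The complex I subunits encoded in mitochondrial DNA differed widely in level. The highest was mt-Nd1, with a median of 7262 TPM over all kept cells, and mt-Cytb, the only mitochondrial subunit of complex III, was close to it at 6695 TPM. By contrast mt-Nd5 had a median of 611 TPM and mt-Nd4l was detected in only 33 cells. These levels carry a limit that comes from the genome. In a search against the nuclear chromosomes of the older mouse build NCBIM37, 6 of the 13 genes had a nuclear copy of at least 99% identity over at least 95% of the gene, all within 1 stretch of chromosome 1 between positions 24619243 and 24622404. These were mt-Co2, mt-Atp8, mt-Atp6, mt-Co3, mt-Nd3 and mt-Nd4l. A copy of mt-Nd4 next to them was identical over 63.6% of that gene. Reads from these genes could have been shared with the copies in the authors' alignment, so their levels are uncertain. For the other 6 genes the best nuclear match was at most 97.6% identical or covered only part of the gene. Summed over those 6 genes alone, the median was 21075 TPM in endoderm-marker and 19935 TPM in progenitor-marker cells, and the fold of means was 1.02 (0.968 in set 1 and 1.07 in set 2). The pooled value was thus on the other side of 1 from the sum of all 13, but the sets were not on one side.

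**Figure D3:**
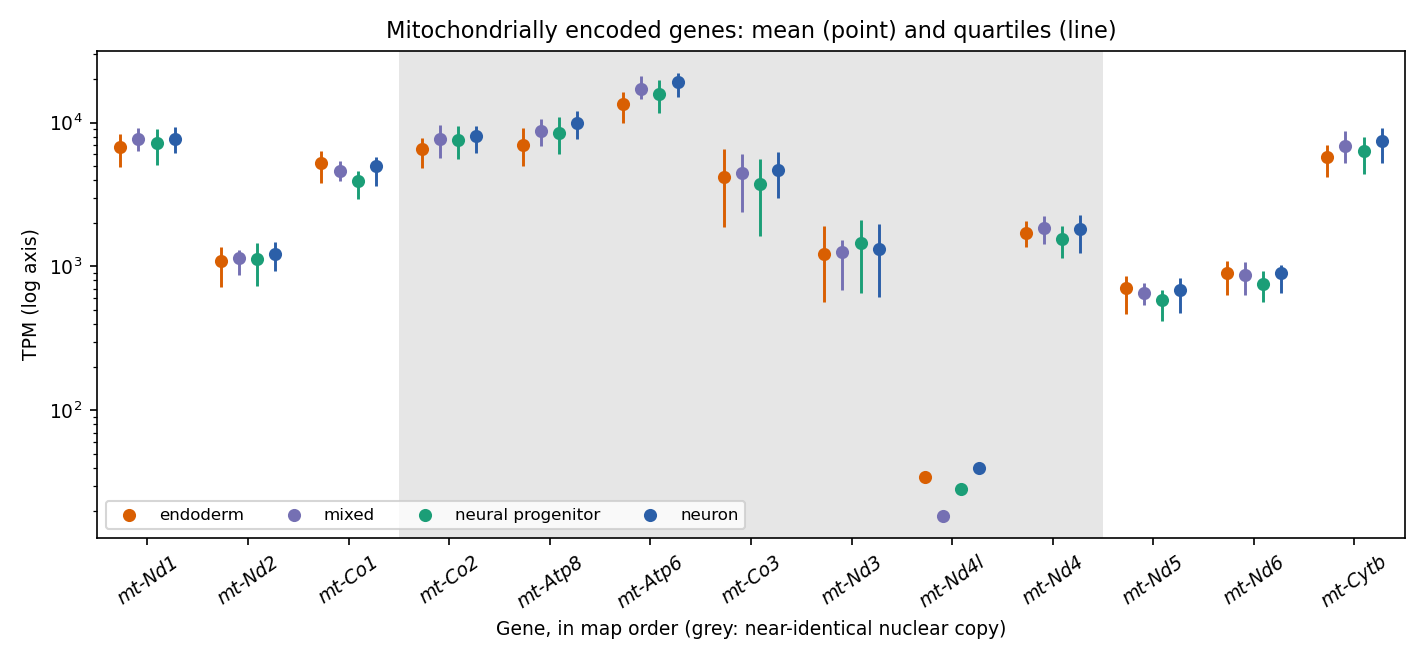
TPM (log axis) of each mitochondrially encoded gene by marker state, with genes in the order of the mitochondrial map. Points are means over cells and lines span the quartiles; mt-Nd4l has no line because its quartiles are 0. Grey marks genes with a near-identical nuclear copy, which for mt-Nd4 covers 63.6% of the gene. Mean levels in progenitor-marker cells run from 28.6 TPM for mt-Nd4l to 15788 TPM for mt-Atp6, and the states lie close together for each gene.

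Some mitochondrial genes dropped out of whole cells. mt-Co3 was below 1 TPM in 36 cells while its median where detected was 4223 TPM, and mt-Nd3 was below 1 TPM in 37 cells while its median where detected was 1295 TPM. Only 9 cells lacked both. In the 55 repeat pairs mt-Co3 was undetected in both columns of 1 pair and in a single column of 11 pairs, and mt-Nd3 in both of 2 pairs and in a single column of 9. Most of these zeros were thus not seen again in the repeat column. Genes that every cell uses can therefore be listed at 0 in this table, and a 0 for them cannot be read as absence. Both mt-Co3 and mt-Nd3 are among the 6 genes with a near-identical nuclear copy. The part of reads shared with the copies in these zeros was not tested. Neighbouring reading frames overlap on the mitochondrial map (assembly GRCm38.p6): mt-Atp8 spans positions 7766 to 7969 and mt-Atp6 7927 to 8607, mt-Nd4l 9877 to 10173 and mt-Nd4 10167 to 11544, and mt-Nd5 11742 to 13565 and mt-Nd6 13552 to 14070. How reads in the overlaps were divided is not given in the sources used here, nor is any use of strand, on which mt-Nd6 differs from its neighbours.

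Nuclear subunits were present in nearly every cell: 69 of the 88 nuclear members were detected in at least 95% of kept cells, and all 69 were structural subunits. Complex I took the largest share of the nuclear sum, and the shares of the complexes differed modestly by state. Complex III made up a median of 15.2% (11.1 to 19.5%) of the nuclear sum in endoderm-marker cells. Its share was 13.6% (8.64 to 17.3%) in progenitor-marker cells and 12.7% (9.40 to 15.9%) in neuron-marker cells. For complex IV the medians were 27.3% (21.2 to 31.8%) in endoderm-marker, 24.7% (20.03 to 29.6%) in progenitor-marker and 25.6% (21.2 to 31.3%) in neuron-marker cells. For complex V they were 22.6% (14.3 to 27.3%), 25.2% (19.5 to 29.7%) and 25.1% (19.7 to 28.9%). For complex I they were 34.6% (29.8 to 44.3%), 36.5% (30.7 to 46.9%) and 36.4% (33.3 to 44.5%). In endoderm-marker cells the medians of complexes III and IV were thus above and those of complexes I and V below the medians of progenitor-marker cells, with ranges that overlapped. Mixed cells had medians between these states for all 4 complexes, at 35.3%, 14.7%, 25.7% and 24.1% for I, III, IV and V. Shares within a cell do not depend on the scaling.

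Of the 88 nuclear members, 83 had a mean of at least 5 TPM and were compared between states. In endoderm-marker against progenitor-marker cells 4 were at least 1.5-fold higher, beside 22.3% of all tested genes, and 14 were at least 1.5-fold lower, beside 37.8%. All 18 lay on the same side of 1 in both column sets. The median fold of the 83 was 0.867, against 0.820 for all tested genes, and 51 of the 83 lay above the median gene. On the scale of the broadly detected genes the split was 13 higher and 4 lower of 83, beside 2539 and 2296 of all 8312 tested genes. The members named as past the rule below are therefore given with their fold on both scales. For 16 of the 18, the mean in mixed cells lay between the means of endoderm-marker and progenitor-marker cells. The 18 were chosen for a gap between those 2 means, and mixed cells carry endoderm and neural markers. The count is thus a description only, and the share over all tested genes was not computed.

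**Figure D4:**
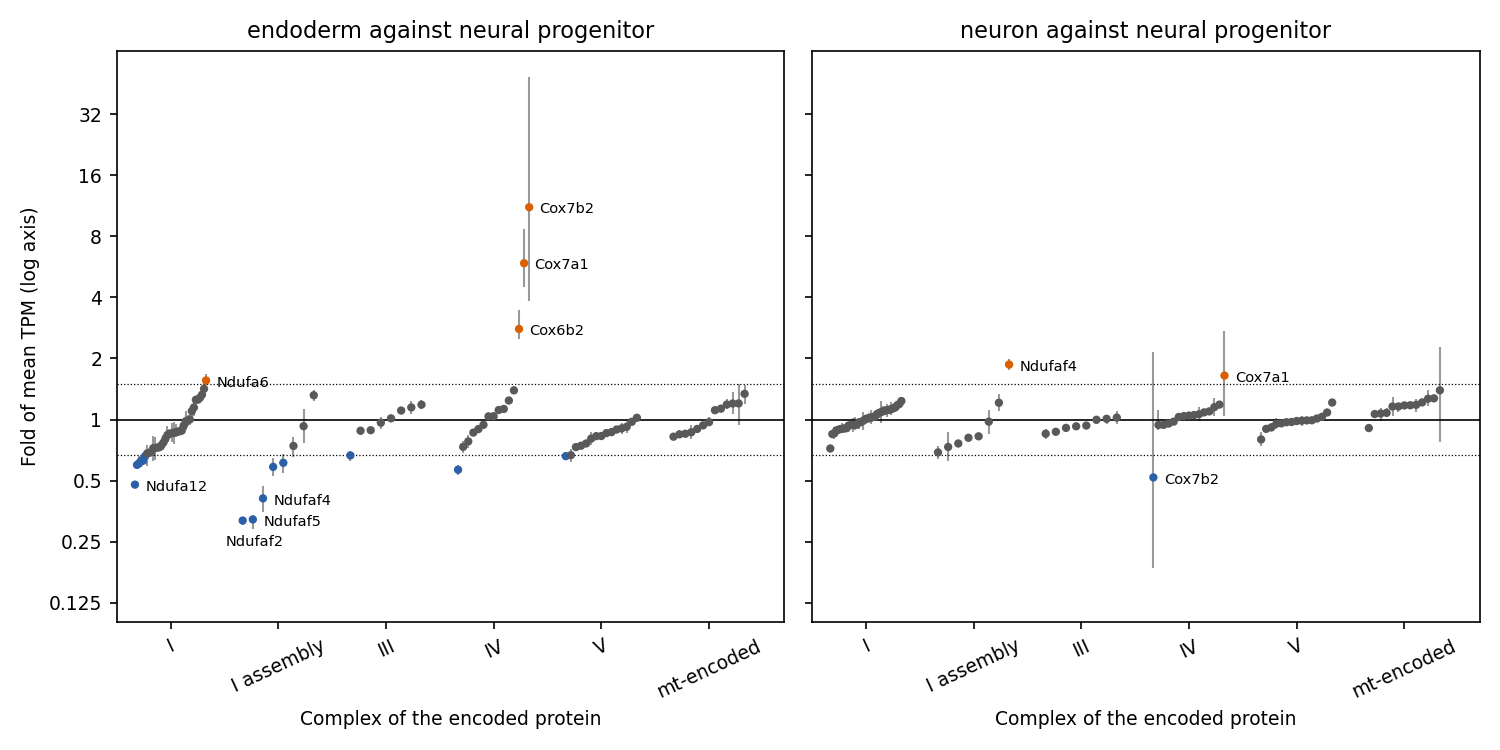
Fold of mean TPM (log axis) against progenitor-marker cells for each compared member, endoderm-marker cells on the left and neuron-marker cells on the right, grouped along the x axis by complex, complex I assembly factors and mitochondrially encoded genes, and sorted by fold within a group. Each point is a gene, grey lines span the folds of the 2 column sets, dotted lines mark 1.5-fold, and orange and blue mark members past it. On the left 4 members lie past the upper line, 3 complex IV isoforms, up to 11.1 for Cox7b2, and Ndufa6 of complex I. Cox7b2 passed the 5 TPM filter only through the endoderm-marker and mixed cells. The lowest folds on the left are assembly factors, while on the right 3 members lie past the lines.

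Of the 36 nuclear subunits of complex I, 6 were at least 1.5-fold lower in endoderm-marker cells and 1 was higher, with a median fold of 0.853. These are smaller shares than the 37.8% lower and 22.3% higher among all tested genes, a background that was not matched for level. The 7 core subunits, which carry the electron path and are conserved from bacteria, had a median fold of 0.685, and the 29 accessory subunits one of 0.865. On the scale of the broadly detected genes these medians were 0.860 and 1.08. The 36 then split into 6 higher and 1 lower, beside 2539 and 2296 of all 8312 tested genes.

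The accessory subunit Ndufa12, which sits on the arm that binds NADH, had the clearest difference. Its level ran from 112.4 to 1247 TPM in endoderm-marker cells with a median of 593. In progenitor-marker cells it ran from 218.99 to 2375 TPM with a median of 1236, and in neuron-marker cells from 47.5 to 1713 TPM with a median of 908. The upper quartile of endoderm-marker cells, 717 TPM, lay below the lower quartile of progenitor-marker cells, 1054 TPM, although the full ranges overlapped. The fold of means was 0.478 (0.490 and 0.466 in the sets), or 0.593 after rescaling. In neuron-marker cells the fold was 0.720 (0.692 and 0.743), inside the 1.5-fold bound. Mixed cells lay between, with a median of 888 TPM.

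Ndufv2, a core subunit of the NADH-binding module, ran from 50.04 to 1064 TPM in endoderm-marker cells with a median of 469, and from 184.04 to 1481 TPM in progenitor-marker cells with a median of 769.7. The ranges overlapped, and the fold was 0.598 (0.6004 and 0.5999), or 0.736 after rescaling. Ndufs1, the largest core subunit and the complex I subunit with the lowest level, had a median of 55.1 TPM in endoderm-marker and 80.1 TPM in progenitor-marker cells and a fold of 0.660, or 0.804 after rescaling. The membrane arm subunits Ndufb3, Ndufb5 and Ndufb6 had folds of 0.608, 0.627 and 0.625, and 0.753, 0.770 and 0.771 after rescaling. All 5 were thus inside 1.5-fold after that rescaling.

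Ndufa6, an accessory subunit of the LYR family, went the other way. It ran from 310.4 to 2200.2 TPM in endoderm-marker cells with a median of 966. In progenitor-marker cells it ran from 204.9 to 1780.3 TPM with a median of 617, and in mixed cells the median was 802 TPM. The lower quartile of endoderm-marker cells, 822 TPM, lay above the upper quartile of progenitor-marker cells, 779.6 TPM, while the ranges overlapped. The fold of means was 1.56 (1.47 and 1.69), or 1.96 after rescaling, and in neuron-marker cells it was 1.02. Within complex I, the endoderm fold thus spanned from 0.478 for Ndufa12 to 1.56 for Ndufa6.

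The complex I assembly factors had means from 21.8 TPM (Ndufaf7) to 124.5 TPM (Ndufaf8) over all kept cells, around and below the lowest complex I subunit, Ndufs1, at 86.8 TPM. Of the 8, 5 were at least 1.5-fold lower in endoderm-marker cells, beside 37.8% of all tested genes, with a median fold of 0.598. After rescaling 3 of the 8 were lower and 1 was higher, beside 2296 and 2539 of 8312 tested genes, with a median of 0.745. Ndufaf2, a factor that binds the nascent complex in the place Ndufa12 later takes, was detected in 40 of 63 endoderm-marker cells (63.5%, exact 95% binomial interval 50.4 to 75.3%). It was detected in 97.5% of progenitor-marker cells (94.3 to 99.2%). Its median was 17.5 TPM (0 to 162.1) against 101.2 TPM (0 to 535), and the fold of means was 0.318 (0.333 and 0.302), or 0.400 after rescaling. In neuron-marker cells its median was 75.5 TPM (0 to 251.9) and the fold 0.762. Such intervals cover counting of cells only and take repeat columns as separate cells, so they are somewhat too narrow.

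Ndufaf5, which modifies an arginine of Ndufs7 during assembly, was detected in 20 of 63 endoderm-marker cells (31.7%, 20.6 to 44.7%) and in 67.8% of progenitor-marker cells (60.9 to 74.2%). Its mean was 10.2 TPM against 31.6 TPM, a fold of 0.322 (0.288 and 0.339), or 0.400 after rescaling. The other factors past the rule were Ndufaf6 with a fold of 0.584 and Ndufaf1 with a fold of 0.612, which stood at 0.696 and 0.794 after rescaling. Ndufaf3 had a fold of 0.741, Ndufaf8 of 0.927 and Ndufaf7 of 1.32.

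Ndufaf4, another assembly factor, had a different median in each of the 3 states. In endoderm-marker cells its median was 13.7 TPM (0 to 87.3) and 39 of 63 cells had it (61.9%, 48.8 to 73.9%). In progenitor-marker cells the median was 38.8 TPM (0 to 125.4), with detection in 96.04% of cells (92.3 to 98.3%). In neuron-marker cells it was 56.98 TPM (0 to 438.8), with undetected values in 6 of 120 cells. The ranges were nested, that of endoderm-marker cells within that of progenitor-marker cells and the latter within that of neuron-marker cells. The fold of means was 0.409 in endoderm-marker cells (0.469 and 0.351; 0.486 after rescaling) and 1.87 in neuron-marker cells (1.99 and 1.76; 1.998 after rescaling). In the 55 repeat pairs it was detected in both columns of 47, in neither of 5 and in a single column of 3.

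Complex III had few differences past the rule. Of its 8 nuclear subunits only Uqcrfs1, the Rieske iron-sulfur protein, was past 1.5-fold in endoderm-marker cells, lower, beside 37.8% of all tested genes, with a median of 225.8 TPM (19.9 to 895) in endoderm-marker and 364.9 TPM (55.2 to 951) in progenitor-marker cells. The ranges overlapped, the fold of means was 0.666 (0.626 and 0.700 in the sets) and after rescaling it was 0.825. Uqcr11, a small subunit and the highest of the complex, had a median of 1886 TPM (289.5 to 3636) in endoderm-marker, 1692 TPM (299.2 to 3171) in progenitor-marker and 1540.1 TPM (445.7 to 2907.5) in neuron-marker cells, with folds of 1.18 and 0.910. Uqcrc2, a core protein and the lowest of the complex, had a fold of 0.881. In neuron-marker cells the folds of the 8 ran from 0.851 to 1.02, with a median of 0.9298, and were all inside the 1.5-fold bound.

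In complex IV, 15 of the 20 nuclear members were compared. In endoderm-marker cells 3 were at least 1.5-fold higher, beside 22.3% of all tested genes, and 1 was lower, beside 37.8%, with a median fold of 1.04. The count of higher members is near the background share, and nothing particular to the complex is read from it. The higher ones were the paralogs Cox7a1, Cox7b2 and Cox6b2, of low level. After rescaling 5 were higher and none was lower, beside 2539 and 2296 of all 8312 tested genes.

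Cox7a1, the isoform of Cox7a known from heart and skeletal muscle, was detected in 28 of 63 endoderm-marker cells (44.4%, 31.9 to 57.5%). It was detected in 33 progenitor-marker cells (16.3%, 11.5 to 22.2%), in 25 of 120 neuron-marker cells (20.8%, 13.96 to 29.2%) and in 29 of 58 mixed cells (36.6 to 63.4%). The median was 0 TPM in all but the mixed cells, and the highest cell had 401.6 TPM in endoderm-marker, 272.98 in progenitor-marker and 598 in neuron-marker cells. The fold of means, 65.3 against 11.1 TPM, was 5.89 (4.52 and 8.71), or 7.64 after rescaling. The common isoform Cox7a2 had a median of 555 TPM (167.6 to 1383) in endoderm-marker and 621 TPM (174.5 to 1314) in progenitor-marker cells, a fold of 0.897. Cox7a1 thus stayed well below its paralog on the mean. Heart markers had a higher mean in the endoderm-marker cells, as given above, and their part in the Cox7a1 result was not tested.

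Cox7a2l, the relative that joins complexes III and IV into supercomplexes, had a median of 86.6 TPM (0 to 191.3) in endoderm-marker cells. It had 139.1 TPM (0 to 486) in progenitor-marker, 165.2 TPM (0 to 422.8) in neuron-marker and 122.1 TPM in mixed cells. The ranges overlapped, and the endoderm fold was 0.566 (0.597 and 0.535), or 0.701 after rescaling, while the neuron fold was 1.15.

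Cox7b2, a paralog of Cox7b known from testis, was detected in 16 of 63 endoderm-marker cells (25.4%, 15.3 to 37.9%) and in 12 of 58 mixed cells (20.7%, 11.2 to 33.4%). It was detected in 6 progenitor-marker cells (2.97%, 1.10 to 6.35%) and 3 of 120 neuron-marker cells (2.50%, 0.52 to 7.13%). Its mean was 26.1 TPM in endoderm-marker and 2.34 TPM in progenitor-marker cells, a fold of 11.1 that differed between the sets (3.83 and 48.9), or 12.96 after rescaling. It passed the 5 TPM filter only through the endoderm-marker and mixed cells, so it had to differ, and its place among the higher members is a description only. The highest cell had 405.6 TPM in the endoderm-marker cells and 349.6 TPM in the progenitor-marker cells, so that a single cell weighs heavily on the lower mean. In the repeat pairs it was found in both columns of 2, in neither of 53 and in a single column of 0. Cox7b itself had a fold of 1.04, with medians of 606 TPM (63.4 to 1585) and 575 TPM (70.9 to 1334).

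Cox6b2, likewise known from testis, was more widespread. Its median was 107.6 TPM (0 to 613) in endoderm-marker and 36.3 TPM (0 to 350.03) in progenitor-marker cells, with 64.7 TPM (0 to 1657) in mixed and 37.96 TPM (0 to 389.3) in neuron-marker cells. It was detected in 82.5% of endoderm-marker (70.9 to 90.9%) and 65.8% of progenitor-marker cells (58.9 to 72.4%). The ranges overlapped, and the fold of means was 2.79 (2.49 and 3.47), or 3.42 after rescaling. Its common counterpart Cox6b1 had a fold of 1.11, with medians of 1452 TPM (260.95 to 2448) and 1278 TPM (398.95 to 2844).

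The remaining isoform pairs showed the ubiquitous form almost alone. Cox4i1 had a median of 1727 TPM (1015 to 3491) in endoderm-marker and 1251 TPM (358.3 to 2507) in progenitor-marker cells, a fold of 1.39, or 1.75 after rescaling. Its lung and hypoxia-linked paralog Cox4i2 was detected in 3 of 63 endoderm-marker cells (4.76%) and 34 progenitor-marker cells (16.8%), at means of 1.69 and 3.15 TPM. Ndufa4, the main form, had medians of 1583 TPM (573 to 3333) and 1667 TPM (303.2 to 4253) and a fold of 0.941. Its paralog Ndufa4l2, known to be raised in hypoxia, was detected in 1 of 63 endoderm-marker cells (1.59%), 33 progenitor-marker cells (16.3%) and 18 of 120 neuron-marker cells (15.0%). Cox4i2 and Ndufa4l2 were below the 5 TPM mean and were given no fold.

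The muscle forms Cox6a2 and Cox8b were nearly or fully absent from the listed values. Cox6a2 was detected in 2 kept cells, and Cox8b was listed below 1 TPM in every kept cell. Cox8c, a testis form, was found in 5 kept cells. Their common counterparts Cox6a1 and Cox8a were found in 99.8% of kept cells each, with endoderm folds of 1.04 and 1.13.

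**Figure D5:**
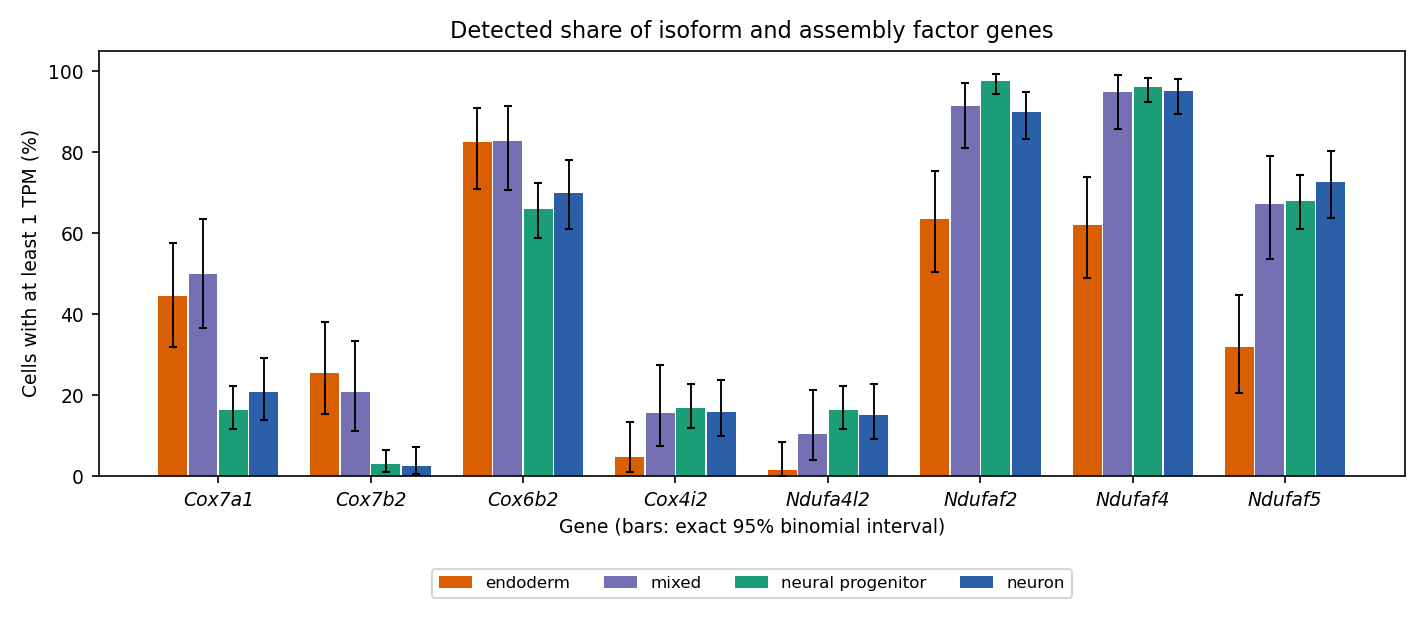
Percentage of cells of each marker state with at least 1 TPM of complex IV isoforms and complex I assembly factors. Error bars are exact 95% binomial intervals and cover counting of cells only. Cox7a1 and Cox7b2 were found in larger shares of endoderm-marker and mixed cells than of neural cells, while Ndufaf2, Ndufaf4 and Ndufaf5 were found in a smaller share of endoderm-marker cells than of the other states.

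The endoderm folds of complex V ran from 0.660 to 1.02, a narrower range than in the other complexes. Of its 15 nuclear subunits 14 had a fold below 1 in endoderm-marker cells on the deposited scale, with a median of 0.829, but only 1 passed the rule, beside 37.8% of all tested genes, and after rescaling 9 of the 15 were above 1. That gene was Atp5o, the stalk subunit that gives the complex its oligomycin sensitivity. Its median was 626 TPM (206.5 to 1117) in endoderm-marker and 943 TPM (120 to 1850.5) in progenitor-marker cells, and the fold was 0.660 (0.648 and 0.672), or 0.823 after rescaling. The catalytic subunit Atp5b had the highest level, with medians of 1786 TPM (914 to 2841) and 1763.5 TPM (768 to 3400.5) and a fold of 0.975. Atp5e, a small subunit of the central stalk, had the lowest mean and a fold of 0.857. The 3 genes that encode the same c-ring subunit, Atp5g1, Atp5g2 and Atp5g3, had endoderm folds of 0.921, 0.743 and 0.805. Their neuron folds were 0.983, 0.798 and 1.08. Atp5g2 was the lowest of the 3 in level, with a median of 629 TPM (77.4 to 1228) in progenitor-marker, 469 TPM (0 to 923) in endoderm-marker and 507 TPM (0 to 1354) in neuron-marker cells. Atp5s, the member that is not a subunit, had a fold of 1.3996, or 1.75 after rescaling.

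In neuron-marker against progenitor-marker cells few nuclear members were past 1.5-fold. Of the 83 compared, 2 were at least 1.5-fold higher, beside 14.1% of all tested genes, and 1 was at least 1.5-fold lower, beside 13.1%. The median fold was 0.983, against 0.986 for all tested genes. Here and in the counts above, the background holds every gene with a mean of at least 5 TPM and was not matched for level. Most nuclear members were detected in at least 95% of kept cells. A share below the background is therefore not read as a trait of the members. The counts were the same after rescaling, beside 1511 higher and 900 lower of 8312 tested genes. The higher members were Ndufaf4, described above, and Cox7a1, whose fold of 1.65 was 1.04 in set 1 and 2.74 in set 2, or 1.78 after rescaling. The lower member was Cox7b2, at 0.518 (0.516 after rescaling), which was 0.184 in set 1 and 2.15 in set 2, so it changed side between the sets. Its means, 1.21 TPM in neuron-marker and 2.34 TPM in progenitor-marker cells, were both below 5 TPM, and it was compared only because of its level in other cells. Across the 36 complex I subunits the neuron folds ran from 0.720 to 1.23. The states also differ in the cell cycle: all 10 cell cycle genes listed were at least 1.5-fold lower in neuron-marker cells (median fold 0.474) and in endoderm-marker cells (0.271), of which 9 stayed so in the latter after rescaling. Stress genes were higher in the endoderm-marker cells, with a median fold of 2.99 over the 5 compared, all higher. The part of either in the results above was not tested.

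Promoters of 6 members that differed past 1.5-fold are shown, to set the letters beside the values. A match to the motif of NRF1, a regulator known for nuclear respiratory genes, is held by 2 of the 6. They come from the RefSeq promoter table of assembly GRCm38.p6, each with 250 bases before and 50 after the start of the transcript. Capitals mark matches to that motif, which is GCGCA, any base and GCGC, on either strand. Ndufaf4 (chr4:24897833-24898132, plus strand) was lower in endoderm-marker and higher in neuron-marker cells, and Ndufa6 (chr15:82354242-82354541, minus strand) was higher in endoderm-marker cells. Ndufa12 (chr10:94198785-94199084, plus strand) was lower and Cox6b2 (chr7:4753045-4753344, minus strand) higher in endoderm-marker cells. Cox7a1 (chr7:30183921-30184220, plus strand) and Cox7b2 (chr5:71548156-71548455, minus strand) were the low-level isoforms found more often in endoderm-marker cells.
Ndufaf4: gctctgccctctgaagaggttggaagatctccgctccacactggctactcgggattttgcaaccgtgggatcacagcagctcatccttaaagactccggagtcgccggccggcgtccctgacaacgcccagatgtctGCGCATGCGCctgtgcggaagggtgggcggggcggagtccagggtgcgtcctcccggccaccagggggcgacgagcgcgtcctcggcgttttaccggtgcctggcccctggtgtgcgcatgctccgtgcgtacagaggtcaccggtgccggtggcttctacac
Ndufa6: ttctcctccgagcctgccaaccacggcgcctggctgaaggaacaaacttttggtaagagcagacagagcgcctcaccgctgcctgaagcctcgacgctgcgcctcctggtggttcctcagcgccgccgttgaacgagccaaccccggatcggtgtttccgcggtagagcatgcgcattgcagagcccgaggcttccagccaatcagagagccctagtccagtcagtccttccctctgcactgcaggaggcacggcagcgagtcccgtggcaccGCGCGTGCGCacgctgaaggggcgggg
Ndufa12: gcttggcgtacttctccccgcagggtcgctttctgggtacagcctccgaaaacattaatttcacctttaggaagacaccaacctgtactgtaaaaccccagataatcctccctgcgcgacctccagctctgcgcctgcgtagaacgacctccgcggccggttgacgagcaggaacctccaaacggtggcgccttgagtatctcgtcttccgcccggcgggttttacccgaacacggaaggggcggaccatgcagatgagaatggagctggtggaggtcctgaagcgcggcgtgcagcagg
Cox6b2: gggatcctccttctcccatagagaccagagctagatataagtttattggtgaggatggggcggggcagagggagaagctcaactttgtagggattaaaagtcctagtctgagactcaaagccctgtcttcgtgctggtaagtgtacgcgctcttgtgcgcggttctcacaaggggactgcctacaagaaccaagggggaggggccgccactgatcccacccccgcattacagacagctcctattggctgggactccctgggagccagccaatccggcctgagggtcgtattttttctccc
Cox7a1: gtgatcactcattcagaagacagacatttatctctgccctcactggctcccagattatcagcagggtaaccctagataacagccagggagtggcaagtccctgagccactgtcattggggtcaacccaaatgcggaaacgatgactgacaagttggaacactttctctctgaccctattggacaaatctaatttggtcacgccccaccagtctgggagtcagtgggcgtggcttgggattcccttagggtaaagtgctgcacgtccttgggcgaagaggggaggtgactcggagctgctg
Cox7b2: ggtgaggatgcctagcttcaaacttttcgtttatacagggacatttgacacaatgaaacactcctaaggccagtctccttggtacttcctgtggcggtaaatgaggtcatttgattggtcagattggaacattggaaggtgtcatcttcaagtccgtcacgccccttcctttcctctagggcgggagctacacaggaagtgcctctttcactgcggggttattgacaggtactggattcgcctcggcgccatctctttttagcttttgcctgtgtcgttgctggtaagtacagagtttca
The match in Ndufaf4 reads the same on both strands and lies before the start, whereas that in Ndufa6 lies after it and on the strand opposite to the one printed, so its capitals show the reverse complement. The promoters with a match belong to genes whose endoderm folds lie on opposite sides of 1.

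The table held 78 promoters of 73 nuclear members. On either strand 23.1% of them held the NRF1 motif, against 4.60% of all 32851 promoters in the table. For CCGGAAG, the motif searched for GABPA, the shares were 20.5% and 8.86%, and for AAGATGG, searched for YY1, 15.4% and 6.34%. At least 1 of the 3 was found in 51.3% of the member promoters and 17.95% of all promoters. Member promoters were also richer in G and C, with a median of 57.5% against 52.7%, and held a median of 19.5 CpG dinucleotides against 7, and whether this composition accounts for the motif shares was not tested. A match describes the letters only. Among the assembly factors 4 of 7 promoters held a match to any of the 3.

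Genes that feed or build the respiratory chain were followed in 7 further lists. Complex II and cytochrome c split in endoderm-marker cells: of 7 genes compared 2 were higher (Sdhd and Cyct, the testis form of cytochrome c) and 3 lower, with a median fold of 0.716 (2 higher and 1 lower after rescaling, median 0.883). Sdhb, the iron-sulfur subunit of complex II, had a fold of 0.541 (0.679 after rescaling) and Sdhc, a membrane anchor, 0.531 (0.657). Sdhd, the other anchor, had a fold of 1.64 (2.02). Cycs, the somatic cytochrome c, had a fold of 0.615 (0.753), and Cyc1, the cytochrome subunit of complex III, 0.716. Cyct passed the 5 TPM filter through the endoderm-marker and mixed cells, with a mean of 1.86 TPM in progenitor-marker cells, so its place among the higher genes is a description only.

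Assembly factors with other names went both ways. Of 27 compared 4 were higher and 8 lower in endoderm-marker cells, with a median fold of 0.778, and after rescaling 8 were higher and 5 lower. The higher ones included 3 genes that serve complex IV: Sco2, which delivers copper, at 69.3 against 15.0 TPM, a fold of 4.63; Cox17, the copper chaperone, at 952 against 321.4 TPM, a fold of 2.96; and Surf1, an assembly factor, at 100.04 against 44.3 TPM, a fold of 2.26. After rescaling these folds were 5.699, 3.69 and 2.93. The lower ones included Timmdc1 at 0.425 (0.675 and 0.212 in the sets), or 0.541 after rescaling. Cox19 and Cox10, also of complex IV assembly, were lower at 0.451 and 0.657, or 0.549 and 0.822 after rescaling. In neuron-marker cells 3 of 27 were higher and none lower: Bcs1l, which inserts the Rieske protein into complex III, at 1.76, Ttc19, also of complex III, at 1.73, and Surf1 at 1.59.

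Genes for mitochondrial DNA transcription and RNA, 16 of them compared, counted 1 higher and 6 lower in endoderm-marker cells with a median fold of 0.729, and 5 higher and 4 lower after rescaling. The lower ones included Polrmt, the mitochondrial RNA polymerase, at 0.375 (3.40 against 9.06 TPM) and the rRNA methyltransferase Tfb1m at 0.328 (7.42 against 22.6 TPM). In neuron-marker cells Tfam, which packages mitochondrial DNA and starts its transcription, had a fold of 0.656 (53.9 against 82.2 TPM). It was 0.773 in set 1 and 0.558 in set 2, and 0.687 after rescaling, so it was inside 1.5-fold in set 1 and on that scale. The mitochondrial mRNA sum was 1.16-fold higher in those cells. Regulators of nuclear mitochondrial genes, 6 compared, counted 3 lower and none higher in each comparison, on both scales. Nrf1 had a mean of 37.2 TPM in progenitor-marker, 14.3 in endoderm-marker and 18.1 in neuron-marker cells, folds of 0.384 and 0.488.

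The citric acid cycle list counted 1 higher and 5 lower of 16 in endoderm-marker cells, with a median fold of 0.865, but 5 higher and 1 lower after rescaling, so its direction flips with the scale. Of the 10 genes of ATP export and inhibitors, Ucp2, an inner membrane carrier, had the largest fold, 6.77 (115.2 against 17.01 TPM), and Slc25a5, the adenine nucleotide translocase of dividing cells, had 0.359 (850.2 against 2369 TPM). Ucp2 was also higher in neuron-marker cells, at 1.996. Glycolysis was lower in endoderm-marker cells at 9 of 16 genes, with 2 higher and a median fold of 0.611, and at 7 of 16 with 3 higher after rescaling. Slc2a1, the glucose transporter, had folds of 0.310 in endoderm-marker and 0.412 in neuron-marker cells, and Pkm, pyruvate kinase, had 0.419 in endoderm-marker cells. Of the 2 higher there, Hk2 had a fold of 2.21 (1.88 and 2.73 in the sets), or 2.81 after rescaling. In neuron-marker cells 4 of 16 were lower and 2 higher, with a median of 0.786, and 2 lower and 2 higher after rescaling. Of the higher, Pfkp had a fold of 2.06 (2.39 in set 1 and 1.85 in set 2), or 2.31 after rescaling. Ldha, lactate dehydrogenase, had a fold of 0.659 in neuron-marker cells (0.607 in set 1 and 0.749 in set 2), and 0.689 after rescaling, so it was inside the bound in set 2 and on that scale. For all list counts on deposited TPM the background was 22.3% higher and 37.8% lower in endoderm-marker cells, and 14.1% and 13.1% in neuron-marker cells. After rescaling it was 2539 higher and 2296 lower of 8312 genes in endoderm-marker cells, and 1511 and 900 in neuron-marker cells.

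Within a state, the mitochondrial genes varied together from cell to cell and apart from the nuclear subunits. Among genes found in 95% or more of a state's cells, the median correlation of log2(TPM + 1) between mitochondrial genes was 0.70 in 55 distinct endoderm-marker cells, 0.70 in 170 progenitor-marker cells and 0.71 in the distinct neuron-marker cells, which are 8 fewer than the 120 columns. Between nuclear subunits the median was 0.11, 0.11 and 0.21, and between mitochondrial and nuclear genes it was -0.02, -0.03 and 0.09. The neighbours mt-Atp8 and mt-Atp6, whose reading frames overlap, correlated at 0.93, 0.93 and 0.90. These are descriptions over cells that share a library preparation and a scale summing to a fixed total, in which part of any relation is set by the scale. The mitochondrial sum and the summed glycolysis genes had rank correlations of -0.42, -0.51 and -0.55 in the same order of states. The nuclear sum and the summed cell cycle genes had rank correlations of 0.32, -0.45 and -0.06, with a different sign between endoderm-marker and progenitor-marker cells.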

How the data were processed

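Single-cell RNA-seq of 464 cells of 1 group was analysed from 1 deposited table of genes by cells. Per the submitters' processing notes, STAR, RSEM and the genome build mm10 were used; versions, annotation and filters: not given in the sources used here, as they name the tools alone. The table states no unit. Its values were taken as TPM, the unit that RSEM gives, made by the authors, since they are decimals whose sum per cell was 54.2% to 95.1% of the full TPM scale. The header line runs on into the first gene and was split there. No column of per-cell values was left unmapped (0), but the column names match no sample title, and all samples share 1 group. The filter kept 458 cells, 224 in column set 1 and 234 in set 2, of which 403 were distinct.

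The members and gene lists were chosen with earlier results of these data known. Cells were filtered and placed in marker states as described above, and marker lists, cuts and thresholds are those given there. Sums of TPM, ratios and folds of mean TPM were computed with Python 3.11.15, NumPy 2.4.6, pandas 2.3.3 and SciPy 1.17.1, and figures with Matplotlib 3.10.9. Genes with a mean of at least 5 TPM over the cells of the 4 states were compared, and a 1.5-fold difference of means was called. No test was run, because cells of 1 sample are not replicates. Shares of cells have exact (Clopper-Pearson) 95% binomial intervals. Named genes were all mt- genes, the highest and lowest nuclear subunit of each complex, up to 10 members in each direction past 1.5-fold on the same side in both column sets, all members of paralog groups, and up to 4 genes per pathway list by the same rule. Ndufb5, Atp5o, Atp5s, Uqcrfs1, Ndufaf3, Ndufaf7, Ndufaf8, Cyc1, Cyct and Ndufs8 fall outside that rule and were named after their values were seen. The same holds for Cox10, Cox19 and Hk2. Of 2 listed pathway genes no row was found under the symbol. The calculation of folds per gene was tested on simulated data, and that of the sums was not. Of 21973 genes 101 were members, and all matched the RefSeq gene table (GRCm38.p6). Nuclear copies of mitochondrial genes were searched with BLAST 2.17.0 against NCBIM37.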

Additional observations from a re-analysis of the deposited data

How the results depend on the processing

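No paired analysis was possible because all cells belong to 1 group and no test was run. Leaving out replicates has no counterpart here; each column set was instead taken alone. Alternatives planned beforehand changed the column set, repeat columns, marker threshold and cuts, scaling, average, filters and fold. Rescaling by broadly detected genes and the 6 mitochondrial genes without a near-identical nuclear copy were chosen after seeing the data. Those 6 still have less similar nuclear matches, as given above. Values that moved by more than the gap between the sets, or counts by more than 1.5 times, were as follows, and the cause was not tested except where the setting itself alters the threshold.

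Endoderm-marker against progenitor-marker cells: the mitochondrial fold of 0.932 became 1.03 in the middle 50% of gene numbers, 1.17 after rescaling by broadly detected genes and 1.02 with the 6 genes. The nuclear fold of 0.9302 became 0.946 with markers at 5 TPM and 1.16 after that rescaling. The ratio fold of 0.982 became 0.924 in the middle 50% and 0.880 with the 6 genes. The 4 higher members became 12 at the lower of the alternative fold thresholds and 13 after rescaling. The 14 lower members became 9 with markers at 5 TPM, 30 at that lower threshold, 4 at 2-fold and 4 after rescaling.

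Neuron-marker against progenitor-marker cells: the nuclear fold of 0.999 became 1.03 with nuclear genes alone rescaled to a fixed total and 1.07 after rescaling by broadly detected genes. The 2 higher members became 1 in set 1, 1 in the middle 50%, 1 with log means, 0 with medians and 0 at 2-fold. The 1 lower member became 2 in set 2, 2 at an endoderm cut of 6, 3 with medians, 3 with log means, 7 at the lower fold threshold, and 0 with markers at 5 TPM, at a neuron cut of 7 and at 2-fold. The Cox7a1 fold became 0.895 in the middle 50%, and the Cox7b2 fold 2.15 in set 2. The mitochondrial neuron fold stayed above 1 in all 18 alternatives (1.095 to 1.249), and the ratio fold below 1 (0.807 to 0.919).

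Cox6b2, Cox7a1, Ndufa12, Ndufaf2, Ndufaf4 and Ndufaf5 in endoderm-marker cells stayed past 1.5-fold in every alternative that gave them a value. By contrast, Uqcrfs1 fell inside it in 10 of 18 and Ndufs1 in 9 of 18. Cox7b2 ranged from 2.61 to 48.9 over 16 alternatives. It passed the 5 TPM filter only through the endoderm-marker and mixed cells, so its staying past 1.5-fold is a description only. Depth is unknown, so genes at low TPM, such as the isoforms and assembly factors, may be listed at 0 where they are expressed.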

Other observations

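Ndufs8, a core subunit of complex I, stood far out in 2 columns among the mixed cells, at 22047 and 21513 TPM, while the next kept column had 716 TPM. The 2 columns are each other's best match at a correlation of 0.713, below the bound used for repeat columns. The gene took 2.76% of the listed expression of the first column. The mitochondrial sums of these columns were 7795 and 11714 TPM, the lowest and the third lowest among the mixed cells. The mean of Ndufs8 in mixed cells was 982 TPM with them and 239.2 TPM without them. No comparison above uses the mixed mean of Ndufs8.

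Cyct, the testis form of cytochrome c, had a mean of 27.2 TPM in endoderm-marker and 1.86 TPM in progenitor-marker cells, and it was singled out after its values were seen. It was at 0 in the progenitor-marker cells of set 2, and its fold in set 1 was 7.02. Its 5 TPM mean over the 4 states rests on the endoderm-marker and mixed cells. Cox7b2 and Cox6b2, testis forms of complex IV subunits, were also above the progenitor-marker mean in endoderm-marker cells, but Cox8c, another testis form, was found in 1 of 63 endoderm-marker cells.

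Cells without detected mt-Co3 had a median mitochondrial sum of 46747 TPM, against 61033 TPM in cells with it. That sum includes mt-Co3 itself, whose median was 4223 TPM where detected, so part of the gap is built in. The sum without mt-Co3 was not compared.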
